A study of Mus musculus with 14 samples.

Results

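The 52 genes described here encode RNA-binding proteins and splicing factors, among them Tardbp, the gene for TDP-43 itself, out of 21900 protein-coding genes in the reference table. A peak belonged to them when the authors' annotation named 1 of the 52 as the gene with the nearest transcription start, and 755 of the 517058 peaks in 10 lists did so. At least 1 peak was named for 49 of the 52, beside 19650 of the 21900 protein-coding genes, and none for Ewsr1, Srsf2 and Ddx5. The peaks came from chromatin immunoprecipitation followed by sequencing (ChIP-seq) in C2C12, a mouse myoblast line that fuses into myotubes when serum is lowered, taken on day 2 of differentiation. In siMyolinc cells the long noncoding RNA Myolinc had been knocked down with an siRNA at 10 nM, and they gave 1 library for each of 4 antibodies, against TDP-43, MyoD, Myogenin and the form of RNA polymerase II with serine 2 of its tail phosphorylated (Pol II S2P). Control cells, whose labels do not say whether a control siRNA was given, gave 3 libraries for TDP-43 and 1 for each other antibody. Each precipitation used 10 µg of antibody, and all lists were called against IgG. Per the labels, the study asked how Myolinc and TDP-43 act at muscle gene promoters, and RNA-binding genes were not its stated target.

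TDP-43 is a nuclear RNA-binding protein that prefers UG repeats in RNA and TG repeats in DNA, regulates splicing, and lowers its own messenger RNA by binding its 3′ UTR. The hnRNP and SR proteins act on exons in opposite ways in many genes, hnRNPs more often repressing inclusion and SR proteins more often promoting it, while U1, U2 and U2AF components recognise the splice sites themselves. MyoD and Myogenin are muscle transcription factors that bind E-boxes, CANNTG, and serine 2 phosphorylation marks polymerase that is elongating through gene bodies.

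List length differed between conditions for each antibody, and depth differed most for Pol II S2P and TDP-43. If scores were scaled to 10000000 tags, a tag being 1 counted read, the siMyolinc libraries held 3040130 to 3774959 tags and the controls 962387 to 3400218. The TDP-43 siMyolinc library had 3253043 tags, against 1394414, 1086957 and 962387 in controls 1, 2 and 3. On the same scaling, MyoD held 3312057 tags in siMyolinc and 3378326 in control, and Myogenin 3040130 in siMyolinc and 3400218 in control. Pol II S2P held 3774959 in siMyolinc and 1455044 in control. The lists held 24964 peaks for TDP-43 siMyolinc, against 29703, 10571 and 8162 in its controls. MyoD had 109541 peaks in siMyolinc and 71884 in control, Myogenin had 20453 in siMyolinc and 115000 in control, and Pol II S2P had 116064 in siMyolinc and 10716 in control. Peaks in the MyoD and Myogenin siMyolinc lists were 75 bp wide at the median, against 219 to 231 bp in their controls. The median peak held 24 tags in MyoD siMyolinc and 8 in its control. In Myogenin siMyolinc it held 137 tags, against 15 in control. For Pol II S2P it held 11 in siMyolinc and 6 in control, and for TDP-43 7 in siMyolinc and 8, 6 and 6 in controls. Tags at single peaks are therefore not comparable between lists. Whether the tags of a peak came from separate fragments was not checked. A listed peak is a call of enrichment over IgG and not a measure of expression, so marker genes cannot check the cell type. Of 11 muscle markers, TDP-43 lists named 5 in siMyolinc and 7, 4 and 2 in controls. MyoD lists named 9 in siMyolinc and 8 in control, Myogenin lists 3 in siMyolinc and 9 in control, and Pol II S2P lists 9 in siMyolinc and 3 in control. Among the markers of other tissues, the lists named 1 to 5 of 5 hepatocyte, 1 to 4 of 5 neuronal and 0 to 2 of 3 blood genes. Of all protein-coding genes, TDP-43 lists named 45.1% in siMyolinc and 49.3%, 26.8% and 22.3% in controls. MyoD lists named 75.7% in siMyolinc and 64.9% in control, Myogenin lists 39.7% and 73.2%, and Pol II S2P lists 77% and 26.8%. The marker counts are of few genes and were not tested against these shares.

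The TDP-43 lists held 40 such peaks in siMyolinc and 35, 11 and 9 in controls. MyoD had 168 in siMyolinc and 115 in control, Myogenin had 29 in siMyolinc and 178 in control, and Pol II S2P had 157 in siMyolinc and 13 in control. Of the 755 peaks, 440 (58.3%) were intergenic, beside 50.3% of all peaks, 210 lay inside the bounds of their gene in the reference table, and 94 were annotated to a transcript of another gene. Repeats held 311 (41.2%), beside 36.2% of all peaks. Ptbp2, the neural relative of the splicing repressor Ptbp1, received 213 peaks, or 28.2% of all, yet 12 lay inside it, 182 were more than 100 kb from its start and 44 fell in its neighbour Dpyd. The next longest entries were Mbnl1 with 58 peaks, Hnrnpd with 43, Srsf6 with 39 and Tra2b with 34. Srsf6 and Ptbp2 had a peak in all 10 lists and Rbm24 in 9.

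**Figure D1:**
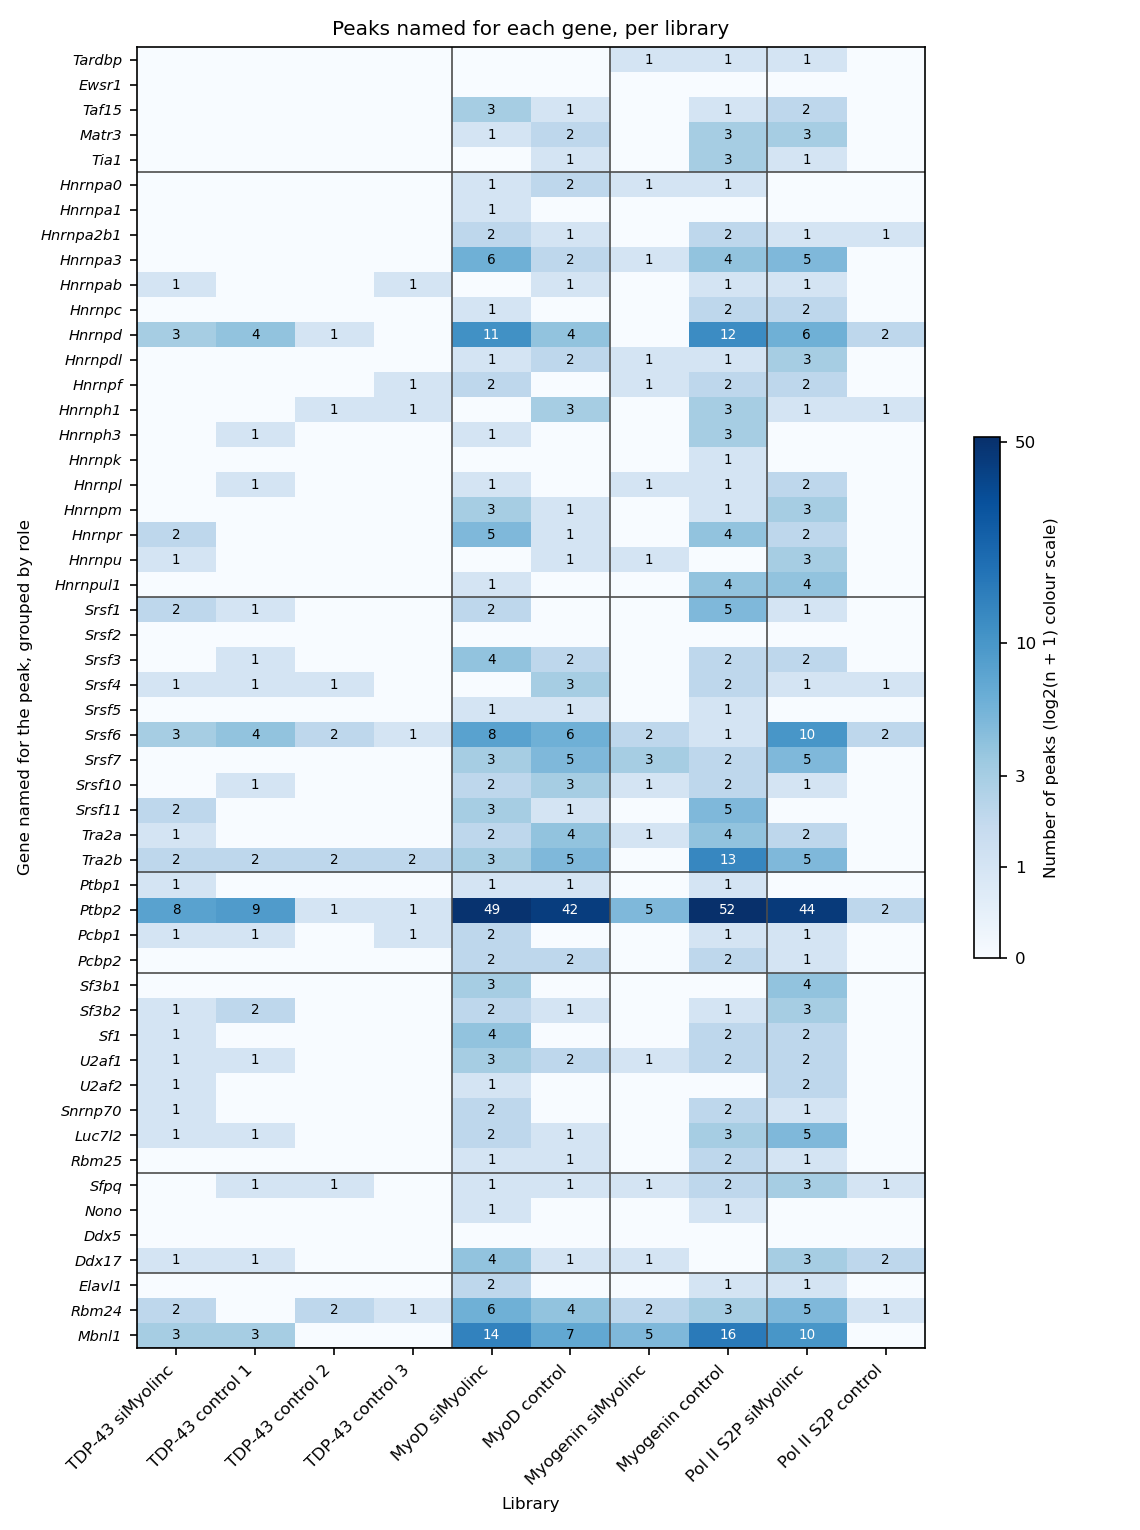
Number of peaks (colour, log2(n + 1) scale, and digits) named for each of the 52 genes (rows, grouped by role, lines between groups) in each of the 10 libraries (columns, siMyolinc left of control for each antibody). Ptbp2 holds 49 and 42 peaks in the MyoD siMyolinc and control columns, and the first 5 rows, from Tardbp to Tia1, are empty in all 4 TDP-43 columns.

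A TDP-43 peak of any class was named for 22 of the 52 (42.3%) in siMyolinc, beside 45.1% of all protein-coding genes. In controls it named 17, 8 and 8 (32.7%, 15.4% and 15.4%), beside 49.3%, 26.8% and 22.3% of all genes. The siMyolinc count was above all 3 controls (11 ± 5.2, SD, n = 3), but 1 library against 3 allows an exact permutation p no smaller than 0.25, and the two-sided p was 0.25. Nothing in the labels says whether the 3 controls came from separate cultures, so that p measures a spread which may be technical. When every list was shortened to its 8162 best-scoring peaks, the length of the shortest, 8 genes had a TDP-43 peak in siMyolinc, against 8, 7 and 8 in controls. The share of listed peaks named for the 52 genes was 0.16% in siMyolinc, against 0.118%, 0.104% and 0.11% in controls (exact permutation p = 0.25, two-sided).

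The other antibodies had 1 library a group, so their values stand without a test. MyoD named 42 genes in siMyolinc and 33 in control, beside 75.7% of all genes in siMyolinc and 64.9% in control. Myogenin named 17 in siMyolinc and 44 in control, beside 39.7% of all genes in siMyolinc and 73.2% in control. Pol II S2P named 41 in siMyolinc and 9 in control, beside 77% of all genes in siMyolinc and 26.8% in control. At equal list length the counts were 9 in siMyolinc and 5 in control for MyoD, 8 in siMyolinc and 7 in control for Myogenin, and 8 in both for Pol II S2P. A second list of 55 RNA-binding and spliceosome genes was counted in the same way. TDP-43 named 27 of the 55 (49.1%) in siMyolinc and 28, 11 and 11 (50.9%, 20% and 20%) in controls, each share above that of the 52. MyoD named 44 (80%) in siMyolinc and 37 (67.3%) in control, beside 80.8% and 63.5% of the 52. Myogenin named 24 (43.6%) in siMyolinc and 46 (83.6%) in control, beside 32.7% and 84.6% of the 52. Pol II S2P named 50 (90.9%) in siMyolinc and 15 (27.3%) in control, beside 78.8% and 17.3% of the 52.

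**Figure D2:**
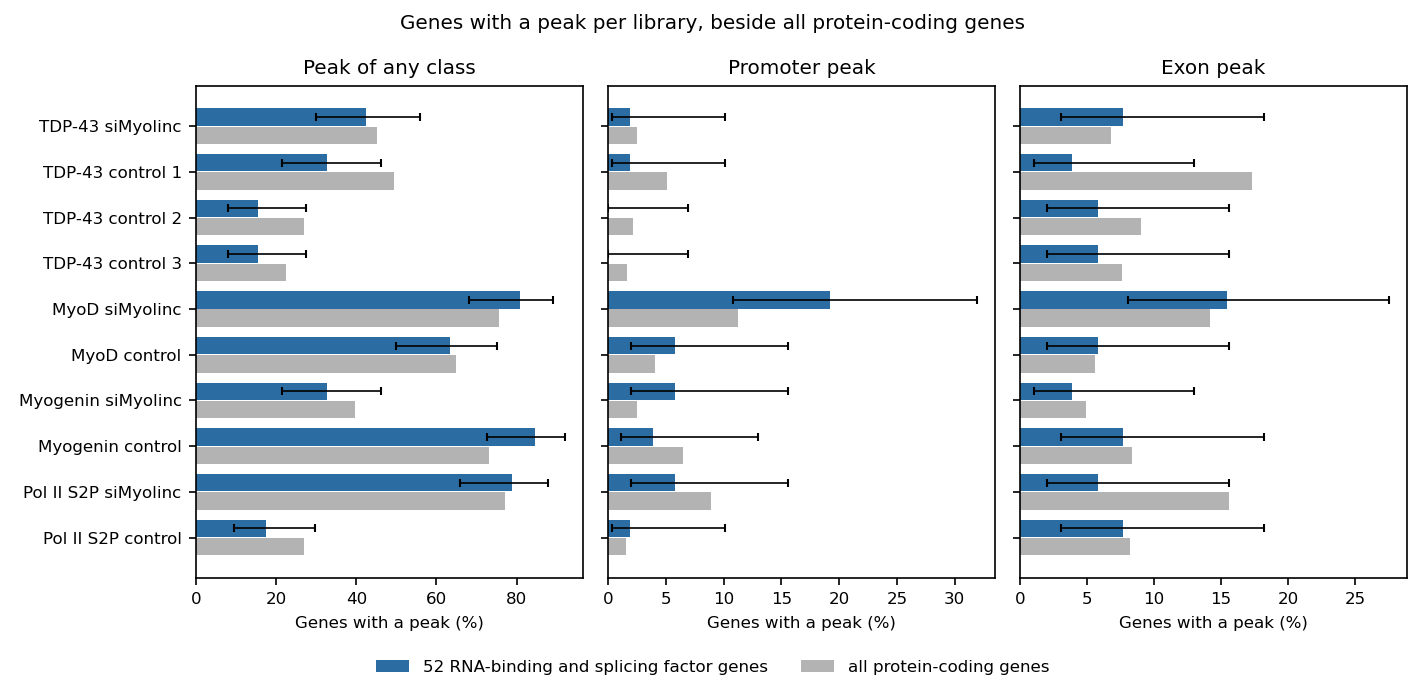
Percent of genes with a peak of any class, a promoter peak or an exon peak in each library (siMyolinc above its controls), for the 52 genes (blue, Wilson 95% interval over genes) and for all 21900 protein-coding genes (grey). For any class the blue bar stands at 42.3% in TDP-43 siMyolinc and at 32.7%, 15.4% and 15.4% in its controls.

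The authors' promoter class was given to 24 peaks at 20 genes, and 3 of the 24, those named for Elavl1, Srsf11 and Hnrnpk, were called on a transcript of a neighbour (Ccl25, Lrrc40 and Rmi1). TDP-43 had a promoter peak at 1 gene in siMyolinc, Rbm24, beside 2.49% of all genes. In controls it had 1, 0 and 0, beside 5.09%, 2.12% and 1.65%, and the 1 was Luc7l2, a U1-associated splicing factor, with 5 tags 293 bp upstream of its start (exact permutation p = 1, two-sided). MyoD had promoter peaks at 10 genes in siMyolinc and 3 in control, beside 11.2% of all genes in siMyolinc and 4.01% in control. Myogenin had 3 in siMyolinc and 2 in control, beside 2.46% of all genes in siMyolinc and 6.46% in control. Pol II S2P had 3 in siMyolinc and 1 in control, beside 8.89% of all genes in siMyolinc and 1.55% in control. No promoter peak of these genes in a control list was overlapped by the siMyolinc list of the same antibody, and over all genes the share of control promoter peaks so overlapped was 12.2% under Pol II S2P, 6.86% under TDP-43, 3.7% under MyoD and 0.966% under Myogenin.

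Rbm24, a splicing factor that drives muscle-specific exon inclusion, held the only TDP-43 siMyolinc promoter peak among the 52 genes. That peak had 7 tags (exact Poisson 95% interval 2.81 to 14.4, list median 7) with its centre 125 bp upstream of the annotated start, and the 3 control lists had none there. Those controls held 1394414, 1086957 and 962387 tags, against 3253043 in siMyolinc, and listed no peak at these genes below 4 tags. At that lower depth, absence from the control lists cannot be read as absence of binding. Ddx17, an RNA helicase known as a coactivator of MyoD, had promoter peaks under 3 antibodies. The Pol II S2P one was that list's tallest among the 52 genes. They held 24 tags for MyoD siMyolinc, 113 for Myogenin siMyolinc and 10 for Pol II S2P control, at 699, 559 and 632 bp upstream. The 2 siMyolinc peaks both overlapped the Pol II S2P one but not each other. Myogenin siMyolinc also marked Ptbp2 with 155 tags at 255 bp upstream and U2af1, which reads the AG at the 3′ splice site, with 75 tags at 142 bp upstream. Over all peaks of that list the median was 137 tags, so the 113 at Ddx17 and the 75 at U2af1 lay below it. Pol II S2P siMyolinc marked Tra2b, a splicing activator, with 17 tags at 199 bp upstream, U2af2, which binds the polypyrimidine tract, with 20 tags at 508 bp, and Taf15, a relative of Ewsr1, with 14 tags at 404 bp. Of the SR protein genes, MyoD siMyolinc marked Srsf6 with 44 tags at 301 bp upstream, Srsf10 with 29 at 500 bp and Srsf7 with 26 at 220 bp. Its other promoter peaks were at Hnrnpa1 with 20 tags, Snrnp70, the U1 70K protein, with 17, Hnrnpm with 16 and Hnrnpr with 14, together with the neighbours' peaks named for Elavl1, with 47 tags, and Srsf11, with 32. The MyoD control list marked Rbm25 with 11 tags, Sfpq, a paraspeckle protein, with 8 and Ptbp2 with 8, and the Myogenin control list marked Snrnp70 with 13.

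Of the 24 promoter peaks, 10 met the 250 bases upstream of a RefSeq start, and 5 stretches are shown because they give each antibody's siMyolinc promoter peak nearest to full coverage and both peaks with an E-box. They run 5′ to 3′ on the gene's strand of GRCm38.p6, the RefSeq build of mm10, with E-boxes (CANNTG, either strand) in capitals.
Rbm24, TDP-43 siMyolinc peak, chr13:46418067-46418283, plus strand: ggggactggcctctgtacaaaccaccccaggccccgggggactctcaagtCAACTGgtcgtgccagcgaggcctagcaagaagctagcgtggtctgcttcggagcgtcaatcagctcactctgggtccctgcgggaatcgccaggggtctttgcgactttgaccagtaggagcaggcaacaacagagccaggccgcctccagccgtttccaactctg
Tra2b, Pol II S2P siMyolinc peak, chr16:22266019-22266237, minus strand: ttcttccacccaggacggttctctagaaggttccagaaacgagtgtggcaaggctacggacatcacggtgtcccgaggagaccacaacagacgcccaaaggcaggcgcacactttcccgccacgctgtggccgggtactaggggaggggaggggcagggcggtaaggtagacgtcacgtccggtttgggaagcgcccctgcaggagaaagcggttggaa
U2af1, Myogenin siMyolinc peak, chr17:31658859-31658933, minus strand: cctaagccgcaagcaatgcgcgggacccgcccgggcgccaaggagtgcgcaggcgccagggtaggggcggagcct
Srsf7, MyoD siMyolinc peak, chr17:80207488-80207555, minus strand: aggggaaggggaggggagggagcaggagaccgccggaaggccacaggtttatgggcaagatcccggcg
Hnrnpk-named peak in the Rmi1 window, Myogenin control, chr13:58402444-58402596, plus strand: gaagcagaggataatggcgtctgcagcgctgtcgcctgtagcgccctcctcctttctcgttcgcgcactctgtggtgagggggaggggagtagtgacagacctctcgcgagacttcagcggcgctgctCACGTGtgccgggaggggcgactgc
The Rbm24 stretch held CAACTG and the Rmi1 stretch CACGTG, and the remaining 8 of the 10 held no E-box. TGTGTG, searched on both strands as the repeat TDP-43 prefers, was in none of the 10, of which 1 is a TDP-43 peak. Over all 69 promoter windows of 50 of the genes, each running from 250 bases before to 50 after a RefSeq start, 58% held an E-box and 11.6% TGTGTG, beside 72.3% and 21.1% of 32851 windows of all genes. The 10 stretches are 14 to 219 bases long, shorter than these 300-base windows, so the shares cannot be set against them. Over whole TDP-43 peaks at these genes, 1 of 40 in siMyolinc (2.5%) was annotated to a TG repeat, beside 0.621% of all peaks of that list. In controls 3 of 35, 0 of 11 and 0 of 9 were, beside 4.72%, 5.43% and 4.55% of all peaks. Matr3 and U2af2 had no entry.

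Exon peaks numbered 37 at 22 genes, and 6 of the 37 were called on a transcript of a neighbour. TDP-43 exon peaks were named for 4 genes in siMyolinc and 2, 3 and 3 in controls. All protein-coding genes had an exon peak in 6.75% of cases in siMyolinc and in 17.3%, 8.98% and 7.57% in controls. The 4 siMyolinc exons were exon 6 of 13 of Ddx17 with 7 tags, exon 4 of 8 of Mbnl1, a regulator of muscle splicing, with 6, exon 5 of 21 of Sf3b2, a U2 component, with 12, and exon 3 of 6 of Srsf6 with 8. Control exons were Sf3b2 exon 9 with 18 tags and Ddx17 exon 13 with 13 tags in control 1. Srsf4 exon 2 with 9 tags came from control 2, Hnrnpab exon 7 with 6 tags from control 3, and Rbm24 exon 4 and an exon of Rufy1 named for Hnrnph1 from controls 2 and 3. Ddx17 and Sf3b2 had an exon peak in both conditions, in different exons. Exons took 10% of the TDP-43 peaks at these genes in siMyolinc, against 5.71%, 27.3% and 33.3% in controls (22.1 ± 14.5%, SD, n = 3, exact permutation p = 0.75, two-sided). Over all peaks of the lists exons took 7.22% in siMyolinc and 19.3%, 24.7% and 26.3% in controls.

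MyoD had exon peaks named for 8 genes in siMyolinc and 3 in control, beside 14.2% of all genes in siMyolinc and 5.55% in control. The siMyolinc peak named for Ptbp2 lay in an exon of its neighbour Dpyd. Myogenin had 2 in siMyolinc and 4 in control, beside 4.93% of all genes in siMyolinc and 8.31% in control. Pol II S2P had 3 in siMyolinc and 4 in control, beside 15.6% of all genes in siMyolinc and 8.16% in control. Its siMyolinc peaks named for Hnrnpul1 and Sf1 lay in exons of the neighbours Axl and Map4k2. Among the 4 Pol II S2P control exons, those of Srsf4, Rbm24, Ddx17 and the Rufy1 exon named for Hnrnph1 were each also under a TDP-43 control peak. Of all Pol II S2P control peaks of any class, 33.3%, 19.4% and 16.4% were under a peak of TDP-43 controls 1, 2 and 3. The share over all its exon peaks was not computed, so the 4 exons have no like background.

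**Figure D3:**
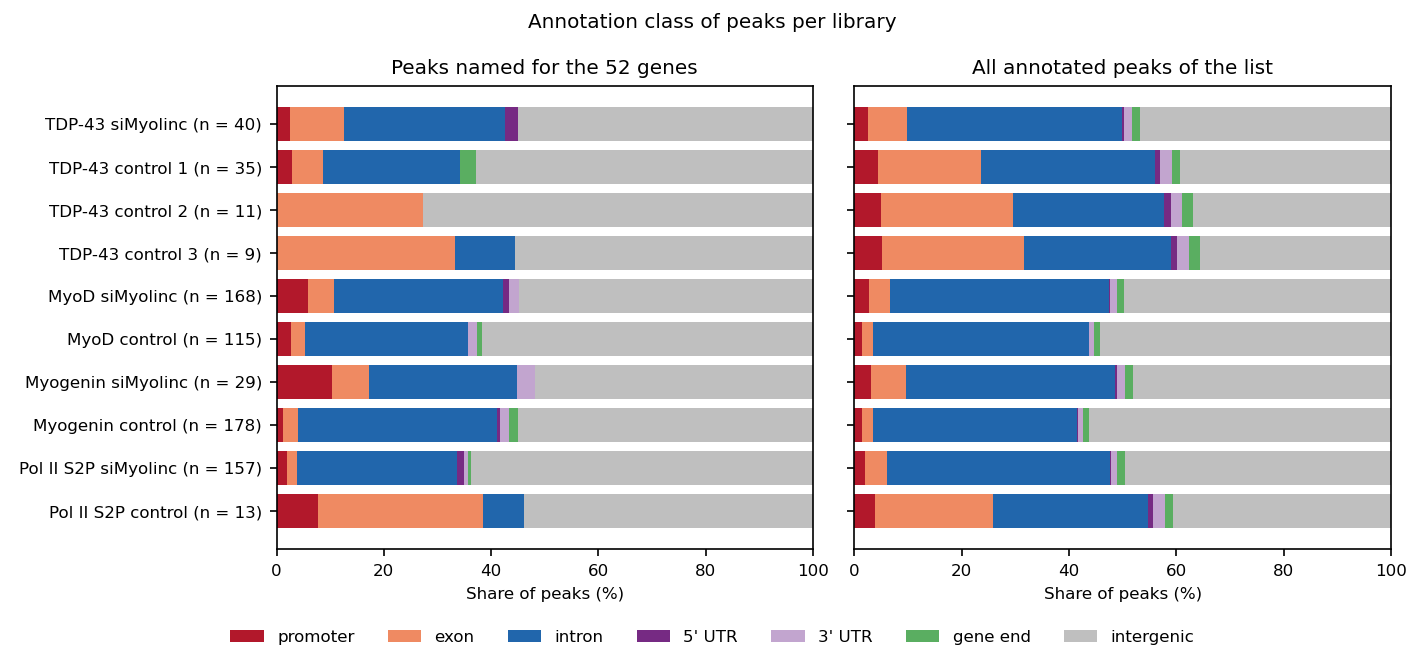
Share of peaks (x axis, %) in each of the authors' annotation classes, per library (siMyolinc above its controls), for peaks named for the 52 genes (left, n of peaks beside each label) and for all annotated peaks (right). Exons take 10% of the left bar in TDP-43 siMyolinc and 5.71%, 27.3% and 33.3% in its controls, the last from 9 peaks.

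Overlapping peaks merged into 703 sites, of which 663 (94.3%) were seen in 1 list, beside 92.9% of the 471905 sites formed by all peaks, 40 in at least 2 and 10 in at least 3. Of the TDP-43 control peaks at these genes, 1 of 35, 1 of 11 and 0 of 9 were overlapped by the TDP-43 siMyolinc list, beside 5.88%, 7.08% and 7.36% of all control peaks. The 2 places were an intron of Dpyd named for Ptbp2, with 9 tags in siMyolinc and 14 in control 1, and a site 72.8 kb downstream of the start of Hnrnpd, an AU-rich element binder, with 7 tags in siMyolinc and 6 in control 2. MyoD siMyolinc overlapped 0 of 115 control peaks, beside 1.77% of all. Myogenin siMyolinc overlapped 0 of 178, beside 0.355%. Pol II S2P siMyolinc overlapped 2 of 13, beside 10.5%, and both lay upstream of Srsf6 and Hnrnpd. With 3 counts of the total as the limit, a count of 0 allows a share of up to 2.61% for MyoD, 1.69% for Myogenin and 33.3% for TDP-43 control 3, each limit being above the value over all peaks and covering counting error only.

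Between TDP-43 control libraries, 5 of the 52 genes (9.62%) had a peak overlapped in another control, namely Hnrnph1, Srsf4, Srsf6, Tra2b and Rbm24, beside 20.2% of all genes. Without control 2 the count was 2, without control 3 it was 3, and without control 1 it was 4. These peaks made 7 sites, 2 of them in all 3 controls. The first was a CpG island at chr2:162908219-162908528 (mm10), at -23.2 to -23.1 kb from the start of Srsf6, with 14, 7 and 5 tags. The second was intergenic at chr16:22294863-22295128, at -29.1 to -29 kb from Tra2b, with 8, 7 and 6 tags. None of the 7 was under a TDP-43 siMyolinc peak, beside 10% of the 6975 sites that at least 2 controls shared over the genome. Of the 7, 5 were under a Pol II S2P control peak, beside 29.3% of the 6975.

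The 5 sites shared with Pol II S2P control were at 4 genes, and 3 of these 5 lay in exons. In exon 4 of 4 of Rbm24 (chr13:46429032-46429323) TDP-43 had no peak in siMyolinc or control 1 and 8 tags in each of controls 2 and 3, and Pol II S2P had none in siMyolinc and 6 tags in control. At exon 2 and the intron after it in Srsf4 (chr4:131891223-131891475), an SR protein gene, TDP-43 had no peak in siMyolinc or control 3 and 9 tags in each of controls 1 and 2, and Pol II S2P had none in siMyolinc and 6 tags in control. The Hnrnph1-named site in exon 13 of Rufy1 (chr11:50398312-50398544) had 7 and 5 TDP-43 tags in controls 2 and 3 and 6 Pol II S2P tags in control. The further 2 were upstream of Srsf6. The CpG island carried 4 Pol II S2P tags in control, and a site at chr2:162899310-162899678 carried 17 in siMyolinc and 6 in control beside 11 and 5 TDP-43 tags in controls 1 and 2. The 9 tags at Srsf4 and the 8 at Rbm24 were the most for any of the 52 genes in controls 2 and 3. Counts this low have wide counting intervals, for example 3.45 to 15.8 for 8 tags and 2.2 to 13.1 for 6 tags.

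**Figure D4:**
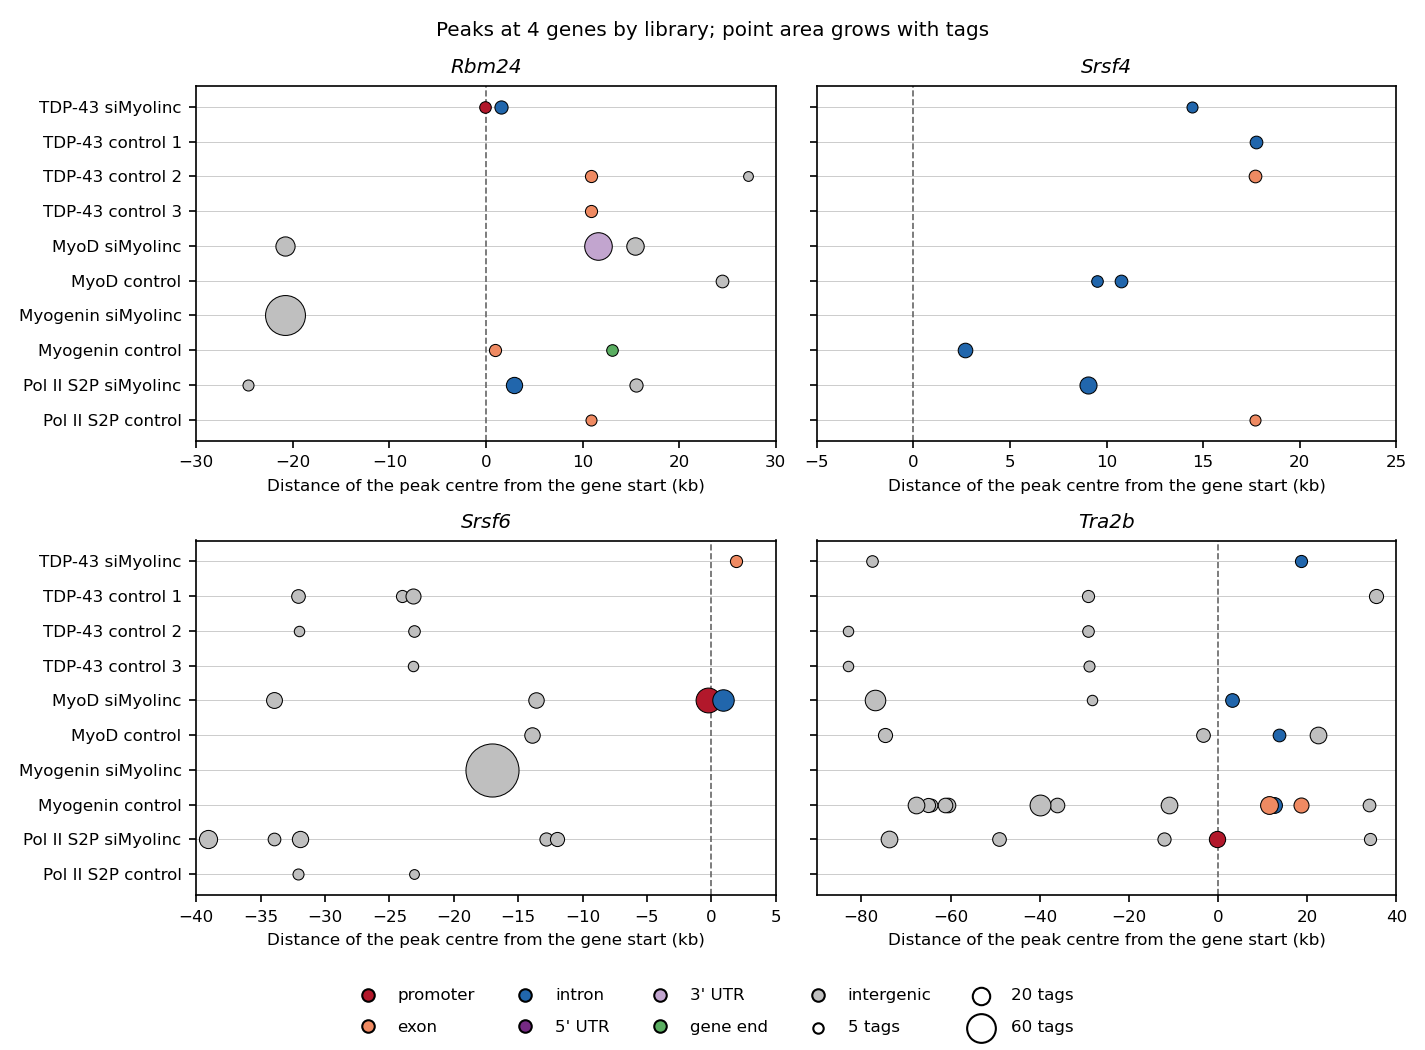
Peaks at Rbm24, Srsf4, Srsf6 and Tra2b by distance of the peak centre from the gene start (x axis, kb, negative upstream) in each library (siMyolinc above its controls), with point area growing with tags and colour giving the annotation class. In Rbm24 the TDP-43 siMyolinc points sit at -0.1 and 1.5 kb, whereas controls 2 and 3 share a point at 10.9 kb.

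Overlap with Pol II S2P rested on few peaks. Of the TDP-43 peaks, 1 of 40 (2.5%) in siMyolinc was under a Pol II S2P siMyolinc peak, beside 6.57% of all TDP-43 siMyolinc peaks. In controls 5 of 35, 6 of 11 and 3 of 9 (14.3%, 54.5% and 33.3%) were under a Pol II S2P control peak, beside 12%, 19.7% and 21.6% of all (exact permutation p = 0.5, two-sided). The 1 in siMyolinc was in intron 4 of Snrnp70, with 8 TDP-43 tags and 9 Pol II S2P tags. Those libraries differed in depth as well, the Pol II S2P library holding 3774959 tags in siMyolinc and 1455044 in control, and the part of depth in this difference was not tested.

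Tardbp itself carried no TDP-43 peak in siMyolinc or in any of the 3 controls. Its 3 peaks were 150 Myogenin tags in its last exon, in the 3′ UTR, in siMyolinc (list median 137), 6 Pol II S2P tags at -1.3 kb in siMyolinc (list median 11), and 20 Myogenin tags at -8.1 kb in control (list median 15). Taf15, Matr3, a nuclear matrix protein, and Tia1, a stress granule protein, also had none for TDP-43 in any list. With Ewsr1 this made 0 of the 5 genes grouped here with Tardbp, a count too small to set against the background. Over all protein-coding genes TDP-43 had a peak at 45.1% in siMyolinc and at 49.3%, 26.8% and 22.3% in controls.

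Among the 17 hnRNP genes, TDP-43 had a peak at 4 in siMyolinc and at 3, 2 and 3 in controls. In this group and the next 3 the counts are of few genes, and over all protein-coding genes TDP-43 had a peak at 45.1% in siMyolinc and at 49.3%, 26.8% and 22.3% in controls. Hnrnpd had most, with 3 peaks in siMyolinc and 4, 1 and 0 in controls, all of them intergenic, the nearest at -2.6 kb in control 1. Hnrnpab had 6 tags at -3.5 kb in siMyolinc and 6 tags in an exon in control 3. Hnrnpr and Hnrnpu, the scaffold attachment factor, had a TDP-43 peak in siMyolinc and in none of the controls. MyoD had a peak at 13 of the 17 in siMyolinc and 10 in control, Myogenin at 6 in siMyolinc and 15 in control, and Pol II S2P at 13 in siMyolinc and 3 in control. Over all protein-coding genes the shares were 75.7% in siMyolinc and 64.9% in control for MyoD, 39.7% in siMyolinc and 73.2% in control for Myogenin, and 77% in siMyolinc and 26.8% in control for Pol II S2P.

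Of the 11 SR and Tra2 genes, TDP-43 had a peak at 6 in siMyolinc and at 6, 3 and 2 in controls (all protein-coding genes: 45.1% in siMyolinc and 49.3%, 26.8% and 22.3% in controls). Srsf6, an exon-binding splicing activator, had 3 TDP-43 peaks in siMyolinc and 4, 2 and 1 in controls. The siMyolinc peaks lay in exon 3 and at -61.1 and -128.4 kb, whereas every control peak was intergenic between -104 and -23.1 kb. Tra2b had 2 in every TDP-43 list, in intron 7 and at -77.7 kb in siMyolinc, and in no control inside the gene. Srsf4 had 6 tags in intron 1 at 14.4 kb in siMyolinc, against 9 and 9 tags at 17.7 kb in controls 1 and 2 and no peak in control 3. Srsf11 and Tra2a had TDP-43 peaks in siMyolinc alone, that of Tra2a with 6 tags in intron 1. In the same intron the Myogenin siMyolinc list had 248 tags, the most for any of the 52 genes in that list, and the Myogenin control list 16 tags elsewhere in it. The medians over all peaks of these lists were 137 and 15 tags, so the 248 and 16 cannot be compared directly. The most tags in the Pol II S2P siMyolinc list were the 37 of a peak at -133.8 kb from Srsf6, and the most in the MyoD control list the 18 of a peak 22.5 kb downstream of the Tra2b start.

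The polypyrimidine and poly(C) binders had TDP-43 peaks at 3 of 4 genes in siMyolinc and at 2, 1 and 2 in controls, too few genes to set against the background. Ptbp2 had 8 in siMyolinc and 9, 1 and 1 in controls, of which 1, with 7 tags in control 1 at 2.5 kb, was inside the gene. Ptbp1 had a single TDP-43 peak, in siMyolinc, of 12 tags at -11.4 kb, and controls had none. Pcbp1, an intronless C-rich binder, had intergenic TDP-43 peaks of 6 tags at 4.9 kb in siMyolinc, 5 tags at 17.4 kb in control 1 and 5 tags at 5.3 kb in control 3, with no overlap between them.

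The 8 splice-site recognition genes had TDP-43 peaks at 6 in siMyolinc and at 3, 0 and 0 in controls (all protein-coding genes: 45.1% in siMyolinc and 49.3%, 26.8% and 22.3% in controls). Sf1, which binds the branch point, U2af2 and Snrnp70 had TDP-43 peaks in siMyolinc alone, those of Sf1 and U2af2 in the neighbours Map4k2 and Ccdc106. U2af1 had 9 tags in intron 2 in siMyolinc and 4 tags in intron 5 in control 1. Sf3b2 exon 9 (chr19:5286978-5287301) was under 3 antibodies, with 27 Pol II S2P tags in siMyolinc, 10 MyoD tags in control and 18 TDP-43 tags in control 1. The last was the most for any of the 52 genes in that list. In TDP-43 siMyolinc the most was 12 tags, at exon 5 of Sf3b2 and at Ptbp1. Controls 2 and 3 listed nothing at Sf3b2.

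Sfpq had intergenic TDP-43 peaks in controls 1 and 2, with 12 tags at -23 kb and 5 tags at -21.7 kb, and none in siMyolinc or control 3. The control 2 peak overlapped a Myogenin control peak of 32 tags, the most for any of the 52 genes in that list. Nono, the partner of Sfpq, had 1 MyoD peak in siMyolinc and 1 Myogenin peak in control. Rbm24 had 2 TDP-43 peaks in siMyolinc, at the promoter and in intron 1 with 10 tags, and 0, 2 and 1 in controls, with 1 in exon 4 in each of controls 2 and 3. At -20.9 kb its Myogenin siMyolinc peak of 119 tags (list median 137) overlapped a MyoD siMyolinc peak of 25 tags (list median 24), and neither control list of those antibodies had a peak there. Its 3′ UTR held the tallest MyoD siMyolinc peak of the 52 genes, with 55 tags. Mbnl1 had 3 TDP-43 peaks in siMyolinc, in an intron, an exon and at -103.1 kb, and 3, 0 and 0 in controls, all 3 intergenic.

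Over all TDP-43 lists 29 of the 52 genes had a peak. Of the 22 in siMyolinc, 8 (36.4%) had none in a control, beside 23.8% of the 9886 protein-coding genes with a TDP-43 siMyolinc peak. The 8 were Hnrnpr, Hnrnpu, Srsf11, Tra2a, Ptbp1, Sf1, U2af2 and Snrnp70. Of the 21 with a peak in a control, 9 had it in at least 2 and 3 (Srsf6, Tra2b and Ptbp2) in all 3. For these counts and for the 29, the like shares of all protein-coding genes were not computed, so they have no like background.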

How the data were processed

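ChIP-seq libraries of C2C12 cells came with 10 peak lists made by the authors, 6 from control and 4 from siMyolinc cells, and 4 input or IgG samples were not analysed here. Per the file headers the peaks were called against IgG and annotated by HOMER, which the submitters' processing notes list with the mm10 build. No aligner, version or calling setting is named there (not given in the sources used here). The deposited peak score was used to rank and filter peaks inside 1 list, and all its values were whole multiples of a step, with 0.05 allowed for rounding and the top 1% set aside. A step was read as 1 tag, and depth in tags assumes scaling to 10000000 tags, which no header states. The deposited focus ratio, a fraction, was not used. The deposited distance to the start described peaks, and served the comparison of starts with the reference table and the promoter alternatives. On scores simulated as whole multiples of a known step, the step was recovered with a largest error of 0.00894%. That simulation cannot check the reading of a step as 1 tag or the assumed scaling, so depth itself was not checked.

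Exon counts include exons of noncoding transcripts. Intervals on tags are exact Poisson and on shares Wilson, both at 95%, the limit on a share of 0 is 3 counts of the total, and all cover counting error only. Overlap means 1 bp or more. Of 22837 gene names in the lists, 22771 were found by identifier in the reference table, GRCm38.p6, the build named mm10. In 67.7% of 19650 protein-coding genes the start in the lists lay within 100 bp of an end of the gene in that table. TDP-43 siMyolinc was compared with 3 controls by an exact two-sided permutation test over libraries, and other antibodies had no test. Alternatives were a score filter, equal list length, no repeats, other promoter and gene definitions, other overlap rules and leaving out each TDP-43 control. The genes named were Tardbp, every gene with a promoter peak, every gene with peaks in at least 2 TDP-43 controls, the 5 with most peaks, the tallest peak of each list and genes with no peak. Others named were chosen after their values were seen. The members and lists were chosen with earlier results of these data known. Python 3.11.15, numpy 2.4.6, pandas 2.3.3 and scipy 1.17.1 were used.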

Additional observations from a re-analysis of the deposited data

How the results depend on the processing

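Of 79 alternatives over 14 results, 58 stayed within the limits set for them, 17 moved and 4 turned direction, and the cause was not tested unless stated. Differences are siMyolinc minus control, in genes of the 52. With lists of equal length, which use fewer peaks, the difference in genes with any peak was 1 for Myogenin (-27 in full lists, so the direction turned), 4 for MyoD (9), 0 for Pol II S2P (32) and 0.333 for TDP-43 (11, exact permutation p = 1), and that in promoter genes was -1 for Pol II S2P (2, so the direction turned), 2 for MyoD (7), 0 for TDP-43 (0.667) and 0 for Myogenin (1). Peaks above the median score gave 0 for MyoD at any peak and 3 at promoters. A midpoint inside the gene gave 14 for MyoD and 21 for Pol II S2P. Counting peaks within 1000 and 5000 bp of a start as promoter peaks gave 15 and 13 for MyoD, -5 and -19 for Myogenin (so the direction turned), 5 and 18 for Pol II S2P, and 1 and 8 for TDP-43. The exact permutation test of TDP-43 cannot go below p = 0.25, so its place relative to the threshold says nothing of stability. The 58 include the TDP-43 values of 0.333 genes with any peak at equal length and 8 promoter genes within 5000 bp, so they do not show that TDP-43 was stable. The share of Pol II S2P control peaks found again was 15.4%, but 0% at equal length, 0% without repeats, 7.69% with 50% overlap, 22.2% above the median score and 30.8% with peaks extended by 500 bp. That extension gave 7.69% for TDP-43 (3.98%), 2.61% for MyoD (0%) and 0.562% for Myogenin (0%). Leaving out each TDP-43 control gave 9.5 to 14 for genes with any peak, 0.5 to 1 for promoter genes, 1.43% to 5.97% for control peaks found again, 2 to 4 for genes shared between controls, and -20.3 to -6.49 percentage points for the exon share. No paired analysis was possible because the replicate numbers of TDP-43 have a single counterpart in siMyolinc. With 4 to 20 tags behind many peaks and 1 library in most groups, library differences cannot be told apart from the knockdown. For TDP-43 and Pol II S2P, whose libraries differed most in depth, depth cannot be told apart from it either. MyoD and Myogenin depths were closer between conditions.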
